A study of Homo sapiens with 16 samples.

Results

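The transcripts of 10 ligands of the TGF-beta family were followed: GDF11, GDF15, TGFB1, TGFB2, TGFB3, INHBA, INHBB, BMP2, BMP4 and BMP7. They were taken by symbol from a table of 78894 genes, in which each of the 10 symbols occurs once. The cells were MCF10DCIS.com, a human breast line that forms lesions resembling ductal carcinoma in situ. All groups came from 1 clone that lacked both copies of PCSK5 after Cas9 cutting, and each group then got back 1 PCSK5 allele, tagged with V5 and switched on through a tetracycline-regulated promoter. Each allele is 1 polyclonal line, so that allele and line cannot be told apart. The cultures grew in 3 dimensions on matrigel in medium with EGF, all received 1 µg/ml doxycycline from day 4, and all were harvested on day 8. The 4 conditions, with 4 wells each, were wildtype PCSK5 (WT), M452I, T288P, and T288P with 250 ng/ml recombinant mature GDF11 throughout (T288P+GDF11). GDF11 was added to the T288P line only. The treated wells therefore differ from WT and M452I in both line and added GDF11, which cannot be told apart there. Nothing says that the wells came from separate experiments, so the p-values measure the spread between wells.

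Ligands of this family are made as precursors with a long prodomain. A proprotein convertase such as PCSK5 or FURIN cuts the precursor, and a dimer of the C-terminal parts is the active ligand. GDF11, the activins (dimers of the INHBA or INHBB product) and the TGF-betas signal through SMAD2 and SMAD3, and the BMPs through SMAD1, SMAD5 and SMAD9. GDF15 is a distant member that signals through the receptor GFRAL and is induced by cell stress. The recombinant GDF11 was added as protein, and the counts measure only the transcripts of the cells.

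The libraries held 28.5 to 50.8 M counts. Levels are given as CPM: a gene's counts divided by the TMM-scaled library total in M. A gene was called where edgeR's quasi-likelihood test, fitted on all 16 libraries and adjusted over 16790 genes, gave an adjusted p under 0.05. All 11 epithelial markers passed the low-count filter, although KRT19 reached only 0.591 CPM, and their sum was 9148 to 12182 CPM in untreated and 7994 to 8911 in T288P+GDF11 wells. The fibroblast list summed to 3.95 to 5.74 CPM in untreated and 5.82 to 8.42 in T288P+GDF11 wells, mostly COL1A1, with COL3A1 and LUM at 0 in all 16 libraries. The endothelial list summed to 0.498 to 1.37 and 2.12 to 3.53 CPM, mostly PECAM1, and the immune list to at most 1.32. The part of these transcripts in the results was not tested. In all, 2 wells stood apart from their groups on the first principal component: M452I replicate 4 (37.5 against -44.7 to -32.9) and T288P replicate 1 (-43 against 2.15 to 8.81). In bulk samples, fewer cells of a type and less RNA per cell cannot be told apart.

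Of the ligand genes, 7 passed the filter on low counts, and INHBB, BMP4 and BMP7 did not. Promoter entries of RefSeq (GRCh38.p14) matched 8 of the 10 ligands, without BMP2 and BMP7. The 250 bases before the start are shown 5′ to 3′ on the gene's strand for GDF11 and for the 3 ligands whose level differed between treated wells and WT, since these are the genes the results turn on. Capitals mark CAGAC, the SMAD box (searched on both strands, so also GTCTG), the AP-1 site TGANTCA, and TATAAA on either strand. The windows are chr12:55742872-55743121 (plus strand) for GDF11, chr7:41703091-41703340 (minus strand) for INHBA, chr19:41353923-41354172 (minus strand) for TGFB1 and chr19:18385908-18386157 (plus strand) for GDF15.
GDF11: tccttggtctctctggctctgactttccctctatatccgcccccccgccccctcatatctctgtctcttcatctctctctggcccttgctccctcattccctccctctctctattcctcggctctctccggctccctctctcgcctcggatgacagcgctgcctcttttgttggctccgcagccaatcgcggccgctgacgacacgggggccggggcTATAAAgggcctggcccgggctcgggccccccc
INHBA: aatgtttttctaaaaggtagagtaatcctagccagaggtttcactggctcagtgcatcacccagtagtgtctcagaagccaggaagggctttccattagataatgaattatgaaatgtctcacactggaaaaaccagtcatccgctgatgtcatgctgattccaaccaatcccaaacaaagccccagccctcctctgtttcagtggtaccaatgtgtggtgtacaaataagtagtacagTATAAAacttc
TGFB1: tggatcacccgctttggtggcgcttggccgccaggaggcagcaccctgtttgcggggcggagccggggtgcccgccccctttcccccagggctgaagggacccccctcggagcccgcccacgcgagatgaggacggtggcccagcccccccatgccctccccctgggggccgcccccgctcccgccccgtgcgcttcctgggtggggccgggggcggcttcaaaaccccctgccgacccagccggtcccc
GDF15: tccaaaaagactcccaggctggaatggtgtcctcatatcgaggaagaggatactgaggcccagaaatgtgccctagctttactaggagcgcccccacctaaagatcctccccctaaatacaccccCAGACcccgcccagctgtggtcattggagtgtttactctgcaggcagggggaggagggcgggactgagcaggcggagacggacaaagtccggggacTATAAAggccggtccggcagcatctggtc
TATAAA stood once in the GDF11, INHBA and GDF15 windows and did not occur in that of TGFB1. It occurs in 10.7% of the 35116 RefSeq windows of this length. CAGAC stood once in GDF15 and not in the other windows shown, against 38% of all windows, and TGANTCA in none of them, against 6.57%. The TGFB1 window held 76.8% G and C, more than 92.5% of all windows, GDF11 64.4%, GDF15 58.4%, and INHBA 42.8%, where 17.8% of windows held less. The windows end at RefSeq starts, which can lie inside the gene bounds of another annotation. These matches describe letters only.

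Per length, the cells transcribed INHBA most among the ligands. INHBA (ENSG00000122641), which encodes the subunit of activin A, stood at 56.4 CPM per kb of exon (SD 14.5, n = 16 wells) and TGFB1 (ENSG00000105329) at 17.2 (SD 4.68). BMP2 (ENSG00000125845) followed with 5.07 (SD 0.694) and GDF15 (ENSG00000130513) with 3.05 (SD 1.34). GDF11 (ENSG00000135414) stood at 0.703 CPM per kb (SD 0.138), TGFB2 (ENSG00000092969) at 0.241 (SD 0.0789) and TGFB3 (ENSG00000119699) at 0.151 (SD 0.0660). The ranges of INHBA and TGFB1 over all wells (38 to 80 and 9.01 to 23.9 CPM per kb) did not overlap each other or those of the genes below them. BMP2 and GDF15 overlapped over all wells but not within T288P or T288P+GDF11, and TGFB2 and TGFB3 overlapped. The length is that of all annotated exons merged, 3601 bases for BMP2 and 2087 for GDF15. Transcripts that use only part of them would stand higher, so the order of BMP2 and GDF15 depends on this choice. INHBA alone made up 75.7% to 90.4% of the counts of the 10 ligand genes in a library.

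**Figure D1:**
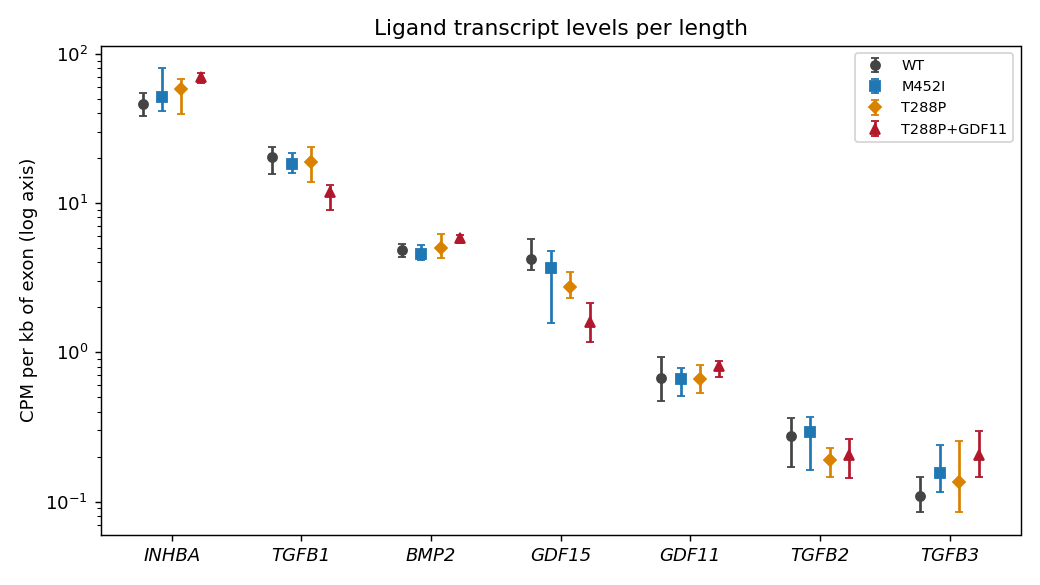
Level of the 7 ligand genes past the low-count filter, in CPM per kb of exon on a log axis. Symbols are means of 4 wells and bars run from the lowest to the highest well. INHBA lies above TGFB1 in every condition, and GDF11 stands at about 0.7 CPM per kb.

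In GRCh38 (GENCODE 29), GDF11 lies on chromosome 12 at 55743280 to 55757278 and INHBA on chromosome 7 at 41667168 to 41705834. TGFB1 lies on chromosome 19 at 41301587 to 41353911 and GDF15 on chromosome 19 at 18374731 to 18389176. BMP2 is on chromosome 20 at 6767664 to 6780280, TGFB2 on chromosome 1 at 218346235 to 218444619, and TGFB3 on chromosome 14 at 75958099 to 75982991. Exons on the opposite strand overlap 4.46% of the exon bases of GDF11 (SARNP), 6.64% of those of TGFB1 (HNRNPUL1) and 3.32% of those of TGFB3 (TGFB3-AS1). TGFB2-OT1 on the same strand covers 26.6% of those of TGFB2. The strand setting of the counting is not given in the sources used here, so reads in these stretches cannot be assigned.

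The first question was whether the PCSK5 allele changed the transcripts of the ligands. No ligand gene was called by edgeR in M452I against WT (0 of 7 tested, 0 with an unadjusted p under 0.05; all genes, 0.0238% called). None was called in T288P against WT (0 of 7, 1 with an unadjusted p under 0.05; all genes, 0.0417%) or in M452I against T288P (0 of 7, 0 with an unadjusted p under 0.05; all genes, 0.00596%). DESeq2 and limma-voom also called 0 in each, although DESeq2 gave no adjusted p for TGFB2 and TGFB3 in M452I against WT. The wells did not overlap for 0 of 7 ligand genes in M452I against WT (all genes, 4.09%), 1 of 7 in T288P against WT (GDF15; all genes, 5.04%) and 0 of 7 in M452I against T288P (all genes, 1.2%). The median log2 fold change of the 7 was -0.02 in both M452I and T288P against WT, where that of all genes was 0.03 and 0.02. The convertase PCSK5 ran from 25.3 to 66.7 CPM over all wells and was called in no comparison. Counts per gene do not tell transcripts of the added PCSK5 allele from those of the cut gene.

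GDF11 itself stood at 8.02, 5.63, 5.48 and 4.09 CPM in the WT wells, 6.36, 5.44, 4.43 and 6.81 in M452I, and 4.60, 5.26, 7.09 and 6.02 in T288P. These ranges overlapped throughout, and the means (5.81 ± 1.63, 5.76 ± 1.06 and 5.74 ± 1.07; SD, n = 4 each) were almost equal. The wells with added GDF11 held 7.32, 7.54, 5.95 and 7.37 CPM, a mean of 7.05 ± 0.738, and 3 of the 4 lay above every T288P well. The log2 fold change was 0.30 against T288P (SE 0.20; edgeR adjusted p = 0.347), 0.28 against WT (SE 0.20; adjusted p = 0.314) and 0.29 against M452I (SE 0.20; adjusted p = 0.299). GDF11 was called under none of the 25 other settings tried in any comparison.

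Added GDF11 went with a lower TGFB1 level. TGFB1, the most widely expressed TGF-beta isoform, stood at 76.5, 44.8, 73.6 and 48.4 CPM in T288P and at 29.2, 42.5, 41.3 and 40.1 in T288P+GDF11. All 4 treated wells lay below all 12 untreated wells, although the highest treated well (42.5) was close to the lowest untreated one (44.8). Of all genes, 22% had no overlap between treated and T288P wells, 35.1% against WT and 18.8% against M452I. The share against all 12 at once was not counted. TGFB1 fell 1.59-fold (-0.67 ± 0.18 on the log2 scale with its SE, edgeR adjusted p = 0.0248) and was the only 1 of 7 ligand genes called between treated and untreated T288P wells (all genes, 12.9% called, 5.07% higher and 7.88% lower). Against WT (76.7, 50.9, 77.3 and 56.7 CPM) the log2 fold change was -0.77 (SE 0.18; adjusted p = 0.00476), and against M452I (53.3, 70.2, 60.3 and 51.5) -0.62 (SE 0.18; adjusted p = 0.0255). The T288P and WT wells each split into a higher pair (replicates 1 and 3) and a lower pair (replicates 2 and 4). The call against T288P was lost without T288P replicate 1 (adjusted p = 0.110), T288P replicate 3 (0.0767) or T288P+GDF11 replicate 1 (0.0852), without a low-count filter (0.0915), and without both outlying wells (0.113). The call against WT held in all 25 settings, and the one against M452I in 19 of them (highest adjusted p = 0.106, without M452I replicate 2).

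GDF15 had the lowest level with added GDF11. The WT wells held 7.96, 12.05, 7.42 and 7.73 CPM, M452I 9.82, 9.94, 7.56 and 3.25, T288P 7.16, 5.28, 4.83 and 5.69, and T288P+GDF11 3.50, 4.46, 2.90 and 2.45. The means were ordered WT (8.79 ± 2.18), M452I (7.64 ± 3.12), T288P (5.74 ± 1.01) and T288P+GDF11 (3.33 ± 0.870; SD, n = 4 each), and no 2 neighbours in that order passed the test. In T288P+GDF11, GDF15 was lower than in WT (-1.40 ± 0.28 on the log2 scale with its SE, edgeR adjusted p = 0.00141) and than in M452I (-1.20, SE 0.28; adjusted p = 0.00730), and both calls held in all 25 settings. Against T288P the log2 fold change was -0.78 (SE 0.28; edgeR adjusted p = 0.0743) with no overlap between the wells, as for 22% of all genes. That value passed in 6 of 25 settings, with adjusted p from 0.00169 to 0.226. T288P wells also lay below all WT wells (-0.62 ± 0.28 on the log2 scale with its SE, edgeR adjusted p = 0.567), without passing. M452I replicate 4 was far below the other M452I wells. Without it and T288P replicate 1, GDF15 was called lower in T288P than in WT (-0.74, SE 0.21; edgeR adjusted p = 0.0482) and higher in M452I than in T288P (0.79, SE 0.22; adjusted p = 0.0206).

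INHBA was higher in T288P+GDF11 than in WT, a comparison that differs in both line and added GDF11. The WT wells held 446, 319, 455 and 315 CPM, M452I 341, 352, 349 and 665, T288P 329, 510, 560 and 527, and T288P+GDF11 607, 525, 573 and 621. The treated wells all lay above the WT wells, and M452I replicate 4 was the highest of all 16. The means were ordered WT (384 ± 76.99), M452I (427 ± 159), T288P (481 ± 104) and T288P+GDF11 (582 ± 42.5; SD, n = 4 each), and no 2 neighbours passed the test. INHBA was called higher in T288P+GDF11 than in WT (1.51-fold; 0.60 ± 0.21 on the log2 scale with its SE, edgeR adjusted p = 0.0391), where 35.1% of all genes had no overlap. The call was lost without WT replicate 2 or 4 or without T288P+GDF11 replicate 1, 3 or 4 (highest adjusted p = 0.102), and without a low-count filter (adjusted p = 0.123). Against T288P the value was 0.27 (SE 0.21; edgeR adjusted p = 0.419) and against M452I 0.45 (SE 0.21; adjusted p = 0.131).

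The wells that stood apart decided several INHBA values. T288P replicate 1 (329 CPM) lay below the other T288P wells, and M452I replicate 4 (665 CPM) above the other M452I wells. Without both, INHBA was called higher in T288P than in WT (0.47 ± 0.11 on the log2 scale with its SE, edgeR adjusted p = 0.0244) and lower in M452I than in T288P (-0.62, SE 0.12; adjusted p = 0.00322). In T288P+GDF11 it was then called higher than in M452I (0.74, SE 0.11; adjusted p = 5.3e-05) and not higher than in T288P (0.13, SE 0.11; adjusted p = 0.517). The value of M452I against WT turned from 0.15 (SE 0.21) to -0.14 (SE 0.11; edgeR adjusted p = 0.534). These wells were known to stand apart from earlier results on the same data, so the calls depend in part on the choice.

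**Figure D2:**
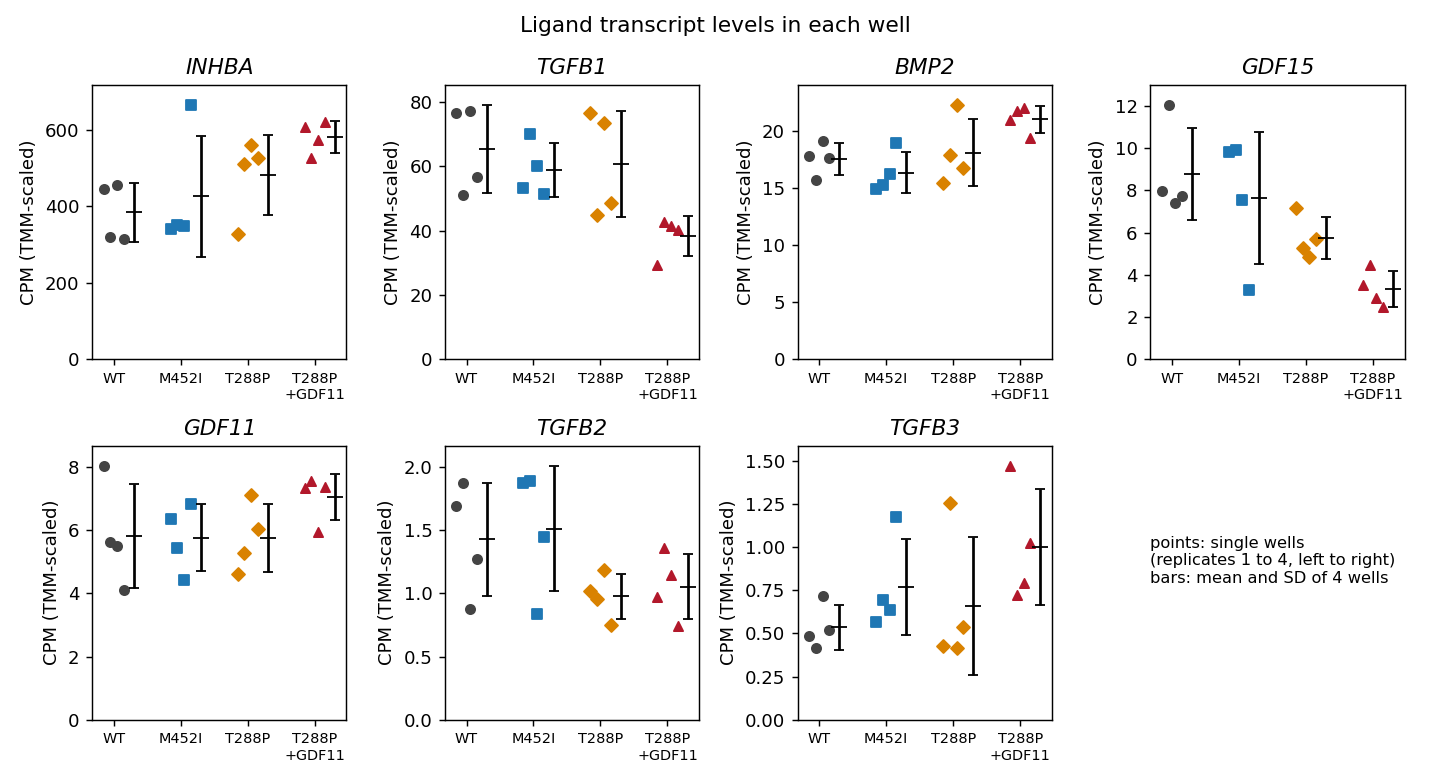
Level in CPM of the 7 tested ligand genes in each well, by condition, with the mean and SD of 4 wells. TGFB1 is lower in all 4 T288P+GDF11 wells than in all 12 untreated wells, and M452I replicate 4 holds the highest INHBA value (665 CPM).

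INHBA varied with the share of counts that fell on ribosomal protein genes, which ran from 8.66% to 12.1%. How many of all genes varied with it as closely was not counted, so the relation is not particular to INHBA by these values. M452I replicate 4 had the lowest share (8.66%) and the highest INHBA level, while the other M452I wells had 11.8% to 12.1%. T288P replicate 1 had 11.4% and the others 9.93% to 10.3%. In WT the wells with 446 and 455 CPM had shares of 9.44% and 9.47%, and those with 319 and 315 CPM 10.5% and 10.9%. Among T288P+GDF11 wells the lowest INHBA level (525 CPM) went with the highest share (11.6%). Over the 12 untreated wells Pearson's r between log2 CPM of INHBA and the share was -0.775 (permutation p = 0.00413, adjusted over 7 genes 0.0246) and Spearman's rho -0.674 (permutation p = 0.0199, adjusted 0.0696). The permutations moved the share freely over the 12 wells without regard to group. Their p-values thus do not separate a relation between wells from differences between groups. Without the 2 wells farthest from the median share r was -0.653 (10 wells), and for deviations from the group means -0.958. The value for deviations was not computed without M452I replicate 4, which lay far from its group in both share and INHBA.

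BMP2 and GDF15 were compared with the share in the same way. BMP2 gave r = -0.724 (permutation p = 0.00703, adjusted 0.0246) and rho = -0.825 (permutation p = 0.00154, adjusted 0.0108), with r = -0.662 without the 2 farthest wells and -0.708 for deviations from the group means. The treated wells did not follow that direction for BMP2: the well with the highest share (11.6%) held 21.7 CPM, and the lowest BMP2 level (19.4 CPM) went with a share of 10.1%. GDF15 gave r = 0.614 (permutation p = 0.0319, adjusted 0.0744) and rho = 0.526 (permutation p = 0.0814, adjusted 0.142), and 0.304 without the 2 farthest wells, so the pooled relation rests on them. For deviations of GDF15 from the group means r was 0.875 over all 12 wells. Among the 4 treated wells the highest GDF15 level (4.46 CPM) went with the highest share (11.6%). GDF11 gave r = -0.562 (permutation p = 0.0584, adjusted 0.102) and rho = -0.593 (permutation p = 0.0458, adjusted 0.107), with -0.693 without the 2 farthest wells and -0.626 for deviations from the group means. For TGFB1, TGFB2 and TGFB3 r lay between -0.294 and 0.08 (lowest permutation p of r 0.354). For deviations from the group means it was 0.07, 0.0278 and -0.549, in that order. These relations were chosen after seeing the data, and their tests are two-sided. The permutations again ignored the groups. Deviations were not correlated without M452I replicate 4, whose share lay far from its group. How many of all genes follow the share as closely was not counted.

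**Figure D3:**
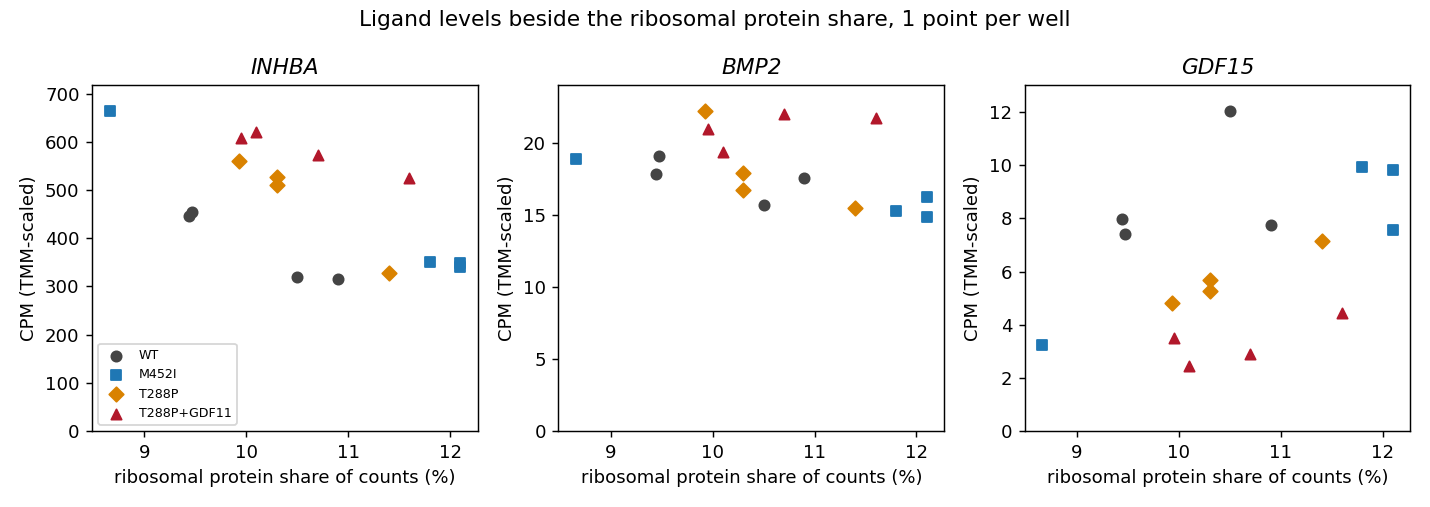
CPM of INHBA, BMP2 and GDF15 against the percent of counts on ribosomal protein genes, 1 point per well and 1 symbol per condition. M452I replicate 4, at a share of 8.66%, holds 665 CPM of INHBA and 3.25 CPM of GDF15.

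With that share as a covariate in the fit, INHBA was called in 5 of 6 comparisons. The log2 fold change was 0.43 for M452I against WT (SE 0.08; edgeR adjusted p = 0.0277), 0.44 for T288P against WT (SE 0.08; adjusted p = 0.00659) and -0.01 for M452I against T288P (SE 0.08; adjusted p = 1.00). It was 0.33 for T288P+GDF11 against T288P (SE 0.07; adjusted p = 0.00241), 0.34 against M452I (SE 0.08; adjusted p = 0.00241) and 0.78 against WT (SE 0.08; adjusted p = 2.7e-07). Of 16790 genes, that fit called 39 in M452I against WT, 299 in T288P against WT and 4889 in T288P+GDF11 against T288P. T288P+GDF11 against WT had 7512. The share comes from the same wells, and these p-values depend on how INHBA followed it within untreated groups (r = -0.958 for deviations from the group means). That r includes M452I replicate 4, which lay far from its group in both, and was not computed without it. The M452I shares (8.66% and 11.8% to 12.1%) all lay outside the WT range (9.44% to 10.9%). Their adjusted difference thus rests on a fitted line, not on wells of like share. Whether the share itself belongs to the response of the cells was not tested. For M452I against WT the covariate gave a positive and the removal of the 2 wells a negative value, so the direction of INHBA in M452I depends on the setting.

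BMP2, a ligand of the SMAD1/5/9 branch, differed little between conditions. WT held 17.8, 15.7, 19.1 and 17.6 CPM, M452I 14.9, 15.3, 16.3 and 18.9, T288P 15.5, 17.9, 22.3 and 16.7, and T288P+GDF11 21.0, 21.7, 22.0 and 19.4. The treated wells lay above all WT and M452I wells and within the range of T288P. BMP2 was called higher in T288P+GDF11 than in M452I (1.29-fold; 0.36 ± 0.12 on the log2 scale with its SE, edgeR adjusted p = 0.0332). That call was lost when any of M452I replicates 1, 2 and 3 or T288P+GDF11 replicates 1, 2 and 3 was left out (highest adjusted p = 0.0885). The value was 0.26 against WT (SE 0.12; adjusted p = 0.0996), which passed with only those 2 groups in the fit (0.0372), with the ribosomal share as a covariate (0.0165) and without both outlying wells (0.0469). It was 0.22 against T288P (SE 0.12; adjusted p = 0.229). In T288P+GDF11 against WT, 3 of 7 ligand genes were called (all genes, 28.9% called, 13.8% higher and 15.1% lower), INHBA higher and TGFB1 and GDF15 lower. Against M452I, 3 of 7 were called (all genes, 21.2% called, 8.27% higher and 12.9% lower), BMP2 higher and TGFB1 and GDF15 lower. Wells did not overlap for 2 of 7 ligand genes against M452I (TGFB1 and BMP2; all genes, 18.8%), 5 of 7 against WT (GDF15, TGFB1, TGFB3, INHBA and BMP2; all genes, 35.1%) and 2 of 7 against T288P (GDF15 and TGFB1; all genes, 22%). The 3 comparisons of the treated wells share those wells.

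**Figure D4:**
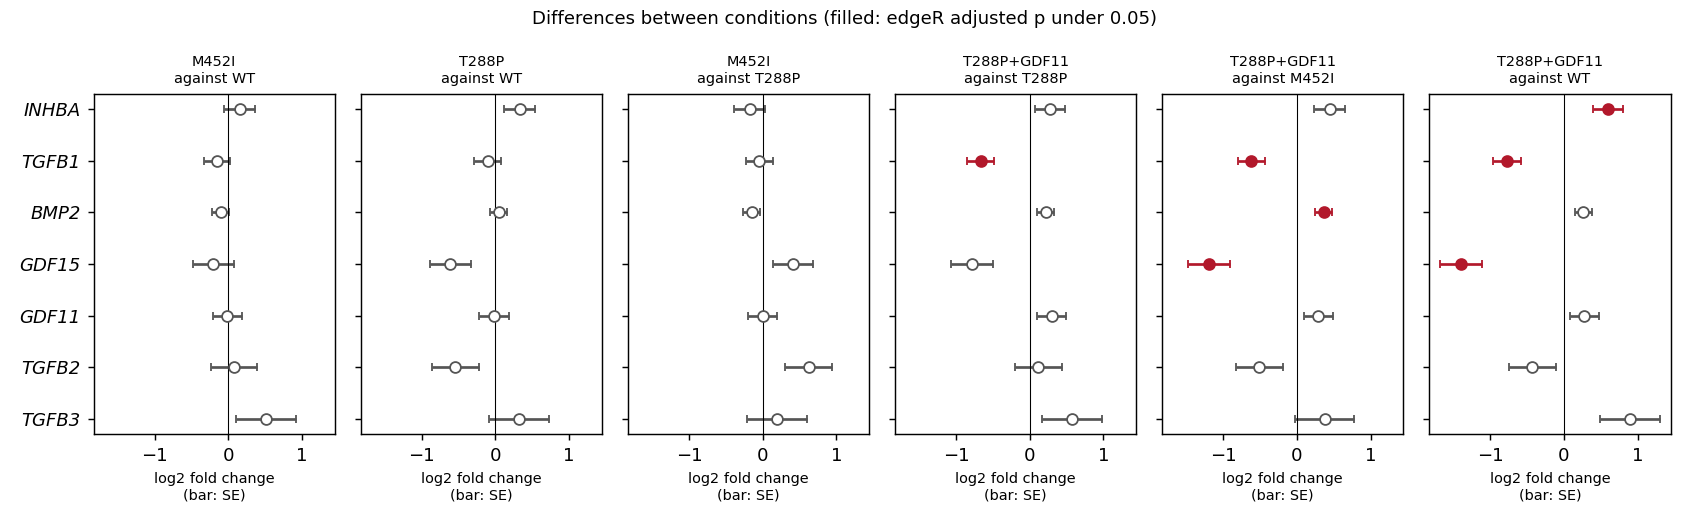
Log2 fold change with its SE for the 7 tested ligand genes in 6 comparisons of conditions. Filled points passed edgeR's test: none between untreated conditions, TGFB1 in all 3 comparisons of T288P+GDF11, GDF15 in 2, and INHBA and BMP2 in 1 each.

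TGFB2 and TGFB3, the other TGF-beta isoforms, were near the lower end of what the libraries resolve. TGFB2 had 24 to 72 counts per library, with means of 1.43 ± 0.445 CPM (WT), 1.51 ± 0.496 (M452I), 0.975 ± 0.180 (T288P) and 1.05 ± 0.259 (T288P+GDF11; SD, n = 4 each). Its ranges overlapped in every pair of conditions. TGFB3 had 12 to 58 counts and stood at 0.535 ± 0.130, 0.768 ± 0.277, 0.659 ± 0.401 and 1.00 ± 0.338 CPM in the same order. The 4 treated wells lay just above the WT wells (lowest 0.722 and highest 0.719 CPM), with a log2 fold change of 0.89 (SE 0.41; edgeR adjusted p = 0.110), which passed with the ribosomal share as a covariate (1.04; adjusted p = 0.0309). T288P replicate 2, at 1.26 CPM, was above the other T288P wells at 0.417 to 0.539.

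The 3 ligands below the filter were barely detected, and 3 counts in a library correspond to 0.0649 to 0.106 CPM. INHBB (ENSG00000163083), the subunit of activin B, had 5 counts in all, 2 in T288P replicate 3 and 3 in T288P+GDF11 replicate 2. BMP4 (ENSG00000125378) had 46 counts in 9 of 16 libraries, at most 8 in one. BMP7 (ENSG00000101144) had 118 counts in 14 libraries, with 2 to 6 per WT well, 0 to 17 in M452I, 5 to 12 in T288P and 4 to 18 in T288P+GDF11. The CPM ranges of BMP7 in WT (0.0450 to 0.172) and T288P (0.174 to 0.299) did not overlap, as for 5.04% of all tested genes. The counts themselves did overlap, and no test was made at this depth. Intervals and floors of this kind cover counting error only.

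Among 23 other ligands of the family, 6 passed the filter, and only MSTN (myostatin, the closest relative of GDF11) was called in T288P+GDF11 against T288P (1 of 6; all genes, 12.9%). MSTN had 2, 19, 4 and 11 counts in T288P and 47, 39, 44 and 16 in T288P+GDF11, that is 0.236 ± 0.161 and 0.955 ± 0.375 CPM (SD, n = 4 each). The wells did not overlap, as for 22% of all genes, and the log2 fold change was 1.96 (SE 0.61; edgeR adjusted p = 0.0411). The call was lost with the replicate number as a block (adjusted p = 0.0886), without T288P replicate 1, 3 or 4, without T288P+GDF11 replicate 1, 2 or 3, without WT replicate 4, without both outlying wells, and without a low-count filter (highest adjusted p = 0.126). The other 5 (GDF9, BMP6, BMP8A, BMP8B and AMH) did not pass.

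Other parts of the pathway were counted in lists chosen with earlier results of these data known. Between untreated conditions edgeR called 0 of the 54 genes tested in the 5 lists, with 3 at an unadjusted p under 0.05 in M452I against WT (all genes, 1058 of 16790), 5 in T288P against WT (1425 of 16790) and 0 in M452I against T288P (366 of 16790). DESeq2 called 1, 2 and 0 of the 54 (all genes, 30, 80 and 6 called), and limma-voom 0 in each. In T288P+GDF11 against T288P, 1 of 11 receptors rose and 1 fell (median log2 fold change -0.02), where 12.9% of all genes were called, 5.07% higher and 7.88% lower. With lists this short, the counts of receptors, of SMADs and of antagonists lie near that background. No list's count, that of precursor processing and latency included, is read as a departure from it. The type II TGF-beta receptor TGFBR2 rose from 35.4 ± 6.42 to 59.0 ± 5.41 CPM (0.74 ± 0.21 on the log2 scale with its SE, edgeR adjusted p = 0.0313), which did not pass when T288P replicate 1 or 2 or T288P+GDF11 replicate 1, 3 or 4 was left out, or with no low-count filter (highest adjusted p = 0.111). The type I receptor ACVR1C (ALK7) fell from 3.55 ± 1.18 to 1.44 ± 0.146 CPM (-1.29 ± 0.24 on the log2 scale with its SE, edgeR adjusted p = 0.00229).

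Among 16 SMADs and intracellular inhibitors, 1 rose and 2 fell (median log2 fold change -0.05; all genes, 5.07% and 7.88%). PMEPA1, which sequesters SMAD2 and SMAD3, rose in every treated well (189 to 204 CPM against 63.8 to 92.1 in T288P; log2 difference 1.33, SE 0.14, edgeR adjusted p = 2.19e-05). The signal transducer SMAD3 fell from 124 ± 7.55 to 90.2 ± 5.80 CPM (-0.46 ± 0.08 on the log2 scale with its SE, edgeR adjusted p = 0.000975). The ubiquitin ligase SMURF1 fell from 136 ± 26.2 to 92.7 ± 10.2 CPM (-0.56 ± 0.16 on the log2 scale with its SE, edgeR adjusted p = 0.0252), which did not pass when T288P replicate 1 or 1 of T288P+GDF11 replicates 1, 2 and 3 was left out, or with no low-count filter (highest adjusted p = 0.121).

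Of 8 extracellular antagonists tested, 1 rose and 0 fell (median log2 fold change 0.15; all genes, 5.07% and 7.88%). It was NOG, which binds BMPs, from 1.32 ± 0.406 to 2.51 ± 0.593 CPM (0.93 ± 0.27 on the log2 scale with its SE, edgeR adjusted p = 0.0285). The NOG call was lost in 8 settings, among them each fit without T288P replicate 1, 2 or 4 or T288P+GDF11 replicate 1, 2 or 4 (highest adjusted p = 0.0806). Of 13 genes of precursor processing and latency, 3 rose and 0 fell (median log2 fold change 0.13; all genes, 5.07% and 7.88%). LTBP2, of the latent TGF-beta binding protein family, rose from 8.57 ± 2.88 to 24.1 ± 3.65 CPM (SD; edgeR adjusted p = 0.00640). The integrin subunits ITGB6 and ITGAV, which together bind and activate latent TGF-beta, rose by 1.60 (SE 0.15; edgeR adjusted p = 5.19e-06) and 0.57 (SE 0.14; edgeR adjusted p = 0.0126) on the log2 scale. The convertase FURIN was at 36.5 ± 2.89 CPM in T288P and 42.5 ± 2.86 in T288P+GDF11 (edgeR adjusted p = 0.169), with no overlap between the wells, as for 22% of all genes. Against M452I (34.6 CPM) FURIN was called higher in T288P+GDF11 (0.30 ± 0.10 on the log2 scale with its SE, edgeR adjusted p = 0.0462). Of all genes, 21.2% were called there, 8.27% higher. FURIN was not followed through the other settings, so how well this call holds is not known.

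The genes whose levels followed each ligand most closely over the 16 libraries were taken from 10430 genes with a mean of at least 3 CPM. They are a description across libraries that share depth, line and treatment. For GDF11 they were TMEM117 (r = 0.871), the nucleoporin NUP85 (0.835) and ERMAP (0.819), with 0.873, 0.776 and 0.820 over the 12 untreated libraries. For INHBA they were ZNF655 (0.977), the contactin CNTN3 (0.975) and EHBP1 (0.972), with 0.980, 0.977 and 0.963 in untreated libraries. For TGFB1 they were VSIR (0.960), the creatine transporter SLC6A8 (0.953) and SBNO2 (0.951). For GDF15 they were the co-chaperone BAG3 (0.952), ZFAND5 (0.950) and the transcription factor TFAP2C (0.948). For BMP2 they were the histone chaperone HIRA (0.935), MAU2 (0.914) and the transporter ABCC4 (0.910). In untreated libraries the 9 values for TGFB1, GDF15 and BMP2 stayed between 0.885 and 0.951.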

How the data were processed

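Poly(A) RNA of 16 wells was sequenced in read pairs. The deposited values are whole-number counts per gene, not normalized. Per the submitters' processing notes, the authors used HISAT2 (version not given) and StringTie 2.2.1 with GRCh38; how reads were counted, on which annotation and with which strand rule, is not given in the sources used here. Genes with 1 count and genes with 2 were about equally frequent in each library (ratio 0.974 to 1.1), so a fragment may give more than 1 count. Each column matched 1 library title, and 0 columns were left unused.

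Tests ran in R 4.3.3 with edgeR 4.0.16: filterByExpr (minimum count 10), TMM, robust dispersion, quasi-likelihood F test, 4 groups without covariate, Benjamini-Hochberg over 16790 genes. Each SE was derived from the fold change and its F value. Log2 CPM used a prior count of 2. Exon lengths were those of all exons of a gene in GENCODE 29, merged. Alternatives were DESeq2 1.42.0, limma-voom (limma 3.58.1), RLE, other filters, a fit of 2 groups at a time, a block for the replicate number, a covariate for the ribosomal protein share, both outlying wells left out, and each library left out. Permutation tests drew 100000 resamples.

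The members and lists were chosen with earlier results of these data known. The rule for named genes took the 10 ligands, PCSK5 and FURIN, up to 3 called genes per pathway list with the smallest adjusted p in T288P+GDF11 against T288P, and the 3 genes with the highest correlation to GDF11 and to each called ligand.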

Additional observations from a re-analysis of the deposited data

Results flagged for a closer look

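In 7 of 38 sets of 4 wells (1 ligand gene in 1 condition, with any spread), 1 well lay far from the other 3. Among the ligands past the filter it was 4 of 28 sets, for a gap that chance gives in about 1 in 20. GDF11 was 5.95 CPM in T288P+GDF11 replicate 3, against 7.32 to 7.54 in the other treated wells. GDF15 was 12.05 CPM in WT replicate 2, against 7.42 to 7.96. TGFB3 was 1.26 CPM in T288P replicate 2, against 0.417 to 0.539. INHBA was 665 CPM in M452I replicate 4, against 341 to 352. The other 3 sets rest on 2 or 3 counts in a single well: INHBB at 0.0695 CPM in T288P replicate 3 and 0.0656 in T288P+GDF11 replicate 2, and BMP4 at 0.0833 in M452I replicate 2, each with no count in the other 3 wells. Such a set is marked whatever the count, so the chance rate does not apply to it.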

How the results depend on the processing

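The number of called ligand genes moved by more than 1.5 times, or from 0, as follows, and the cause was not tested. After adjustment for the share of ribosomal protein counts it was 1 in M452I against WT and 2 in T288P against WT (0 in the main analysis), 3 in T288P+GDF11 against T288P (1 in the main analysis) and 5 in T288P+GDF11 against WT (3 in the main analysis). The same fit called 39, 299, 4889 and 7512 of all 16790 genes, in the same order. With both outlying wells left out, 2 ligand genes were called in T288P against WT and 2 in M452I against T288P (all genes, 698 and 2420 called). In T288P+GDF11 against T288P, DESeq2, a fit of only the 2 groups and the replicate block gave 2 (TGFB1 and GDF15), and no low-count filter 0. Leaving out both outlying wells gave 1 there, GDF15 in place of TGFB1. Smaller moves from 3 were to 2 with no filter against WT (without INHBA) and against M452I (without TGFB1), to 4 without both outlying wells against WT (with BMP2) and against M452I (with INHBA), and to 4 with 2 groups against WT (with BMP2). Against M452I the adjustment for the ribosomal share kept 3, with INHBA in place of TGFB1. Leaving out 1 library gave 0 to 2 in T288P+GDF11 against T288P, 1 to 4 against M452I and 2 to 3 against WT, and 0 in each comparison of untreated conditions. Of 1044 ligand fold changes under an alternative, 44 had the other sign, none of them past the threshold there or in the main analysis. After adjustment for the ribosomal share, the log2 fold change of GDF11 was 0.154 in M452I against WT and 0.0466 in T288P against WT. Without both outlying wells it was 0.0498 for GDF15 and -0.144 for INHBA in M452I against WT, 0.0722 for GDF11 in T288P against WT, and -0.179 for GDF11, 0.143 for TGFB1 and -0.24 for TGFB3 in M452I against T288P. GDF11 in M452I against T288P gave -0.00803 with DESeq2, -0.0134 with limma-voom, -0.00721 with RLE, -0.0108 with no filter, -0.0115 with the stricter filter, -0.00528 with 2 groups and -0.012 with the block, which gave 0.00133 in T288P against WT. Leaving out 1 library gave -0.151 to 0.179 for GDF11, -0.104 to 0.28 for TGFB2, -0.356 to 0.0498 for GDF15 and -0.144 to 0.246 for INHBA in M452I against WT. It gave -0.147 to 0.181 for GDF11, -0.228 to 0.0172 for TGFB1, -0.212 to 0.503 for TGFB3 and -0.0703 to 0.12 for BMP2 in T288P against WT. It gave -0.0984 to 0.12 for GDF11, -0.172 to 0.073 for TGFB1 and -0.0816 to 0.725 for TGFB3 in M452I against T288P, and -0.0151 to 0.25 for TGFB2 in T288P+GDF11 against T288P. The calls of all genes ranged from 0 to 640 in M452I against WT, 1 to 698 in T288P against WT, 0 to 2420 in M452I against T288P, 1028 to 4889 in T288P+GDF11 against T288P, 1662 to 6941 against M452I and 3672 to 7512 against WT.

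The replicate numbers share no stated batch: deviations of same-numbered wells correlated above 0.1 in 4 of 24 pairs, and 2 of 16 wells correlated best with their own number. The replicate block added GDF15 (adjusted p = 0.0370) and ended the call of MSTN in T288P+GDF11 against T288P. At 12 to 72 counts per library for TGFB2 and TGFB3, the SE of a log2 fold change was 0.31 to 0.41.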
